A study of Mus musculus with 9 samples.

Results

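Interleukins are small secreted proteins by which immune and tissue cells instruct each other, and each acts through a receptor built of a few membrane chains, some of which are shared between several interleukins. The genes described here are those whose symbol begins with Il and a digit, 78 of the 18639 genes in the deposited tables: 34 ligands, 37 receptor chains, 5 secreted or decoy inhibitors and 2 entries for an enzyme, Il4i1 and Il4i1b, that share only the name. They were measured by bulk RNA sequencing of tumour tissue from mouse brains on day 5 after resection. CT2A, the tumour, is a mouse glioma cell line. The 3 treatments had 3 libraries each: sECM only, GFP-TC (control cells) and ThTC (cells that secrete IFNβ and GM-CSF). The series title describes the secreting cells as CT2A cells too, so RNA of the tumour and RNA of the given cells cannot be told apart by species or line. Mouse strain, age, the vector that drives the factors and whether 1 library is 1 animal are not given in the sources used here, and the p-values therefore reflect spread among libraries, which may be technical.

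As background, the IL-1 family (IL-1, IL-18, IL-33 and IL-36) signals danger through MyD88 and NF-κB. Receptors built on the common gamma chain (Il2rg) carry signals for lymphocyte growth and survival through JAK1, JAK3 and STAT5 or STAT6. The gp130 and IL-12 group steers acute inflammation and T helper type 1 cells, the IL-10 group restrains macrophages, and the IL-17 group acts on epithelial and stromal cells. In glioma, most interleukin ligands come from infiltrating myeloid and T cells, while IL-33 and IL-34 are also made by resident brain cells.

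The 4 stretches upstream of annotated transcription starts shown here belong to genes that stand for patterns described further on. These are the ligands Il1b and Il33, the receptor Il1r1, and Il12rb2, a receptor chain of T and NK cells. Il1r1 had the smallest p-value of all the genes here. The stretches are from RefSeq promoter windows of GRCm38.p6, 5′ to 3′ on the strand of the gene, cut back to bases that lie outside annotated exons. Those of Il1b and Il12rb2 stop at the gene model, short of the start used for the window. Their marked letters lie 31 and 123 bases before that start. The stretches of Il33 and Il1r1 lie within the gene models, upstream of internal starts. Il33 also has a window at its 5′ end, and the one shown was chosen for TATAAA 29 bases before its start. Capitals mark TATAAA, the TATA box letters, or TTCNNNGAA, the letters of a STAT binding (GAS) element, searched on both strands.
Il1b, chr2:129371165-129371314, minus strand: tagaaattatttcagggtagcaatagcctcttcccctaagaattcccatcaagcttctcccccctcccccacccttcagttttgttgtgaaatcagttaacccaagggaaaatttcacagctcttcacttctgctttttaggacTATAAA
Il33, chr19:29945640-29945789, plus strand: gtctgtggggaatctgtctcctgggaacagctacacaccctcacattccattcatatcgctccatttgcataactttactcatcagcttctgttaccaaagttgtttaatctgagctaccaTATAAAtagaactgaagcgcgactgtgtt
Il12rb2, chr6:67376294-67376438, minus strand: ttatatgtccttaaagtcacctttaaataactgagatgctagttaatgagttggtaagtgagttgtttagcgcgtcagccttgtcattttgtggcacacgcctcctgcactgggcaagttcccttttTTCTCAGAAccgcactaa
Il1r1, chr1:40224930-40225079, plus strand: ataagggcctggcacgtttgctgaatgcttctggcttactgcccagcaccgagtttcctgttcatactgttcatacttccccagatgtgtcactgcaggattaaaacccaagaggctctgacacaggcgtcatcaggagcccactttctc
Of the 78 genes, 61 had a RefSeq window, searched over the 250 bases before each start. TATAAA was found for 12 of these 61 genes, against 14.3% of all 27025 genes with a window. TTCNNNGAA, which reads the same on both strands, was found for 7 of 61 (Il12rb2, Il18r1, Il19, Il1f9, Il1r2, Il31ra and Il7r), against 8.13% of all genes. GAAA, any 2 bases and GAAA again, the core of the interferon-stimulated response element, was found for Il4 and Il19 only, 2 of 61, against 3.46% of all genes. These are matches of letters, not measured binding.

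The levels differed widely between genes. Mean TPM (a transcript level corrected for gene length and scaled to a fixed total per library) over the 9 libraries was 10 or more for 22 genes, from 1 to under 10 for 21 and under 1 but above 0 for 31, while 4 (Il9, Il17a, Il22 and Il1f6) were listed at 0 in every library. The 10 highest genes took 58.2% to 64.4% of all TPM of the 78 genes in a library. They were the alarmin Il33 (mean 86.0 TPM), the shared receptor chain Il2rg (71.6), the IL-17 receptor chain Il17rc (68.4), the macrophage growth factor Il34 (62.1), the IL-18 inhibitor Il18bp (57.8), the gp130 chain Il6st (46.6), and the receptor chains Il10rb (37.8), Il2rb (35.3), Il6ra (34.8) and Il4ra (32.3). Each neighbouring pair in this order overlapped in its range over the 9 libraries, so the order within it is not firm. Receptor chains were measured more often than ligands: 27 of 37 receptor genes, 14 of 34 ligand genes and 3 of 5 inhibitor genes had 1 TPM or more in at least 3 libraries. These 45 genes, with Il4i1 included, are the ones tested here.

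**Figure D1:**
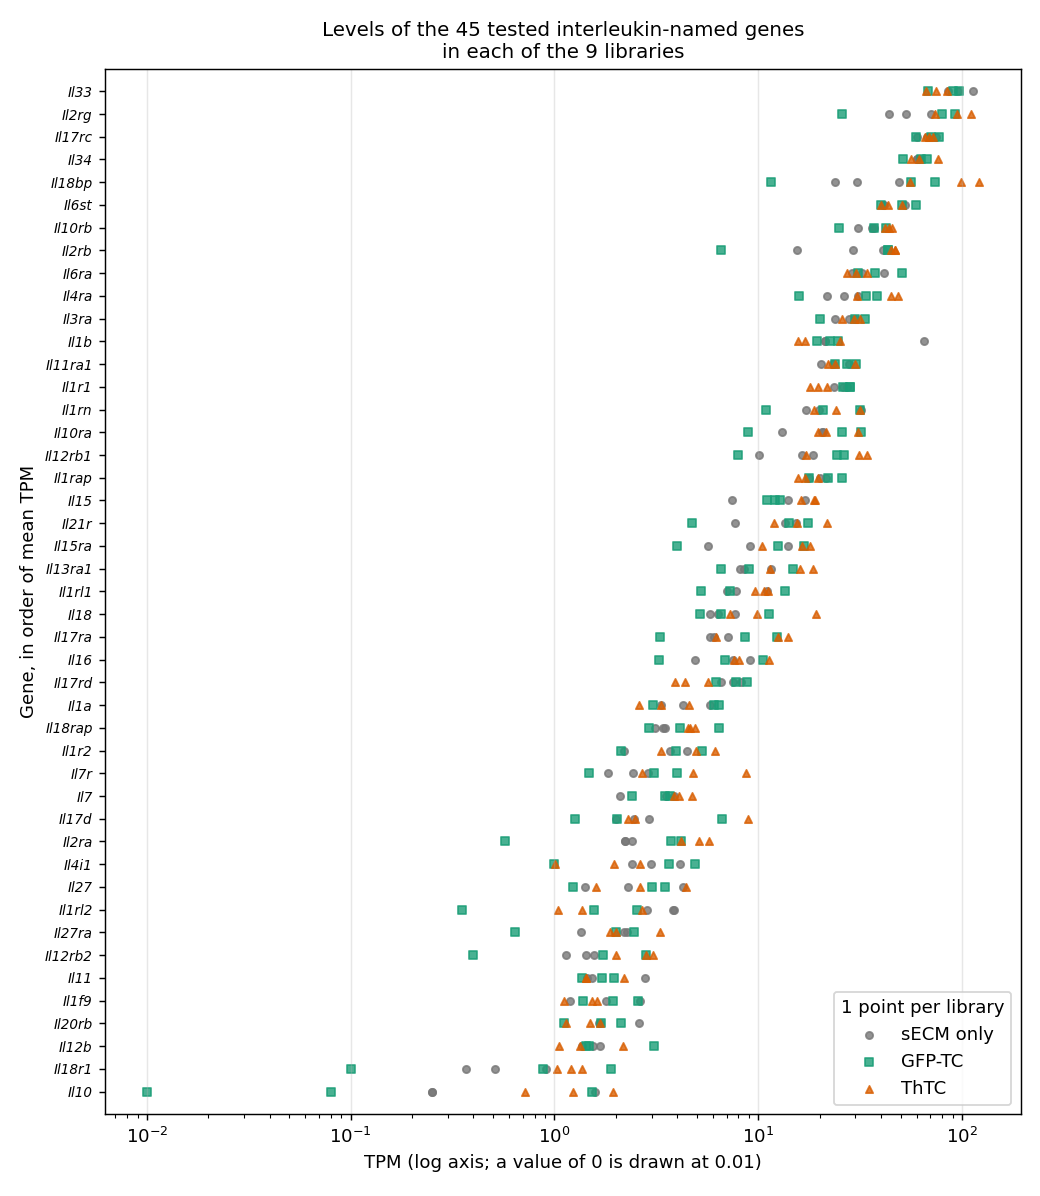
TPM on a log axis for the 45 tested genes, 1 point per library, coloured by treatment, in order of mean TPM. Il33 at the top lies between 66.4 and 113.1 TPM, and the GFP-TC points far to the left of the others are mostly GFP-TC 1.

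The libraries differed in tissue content within groups as well as between them. The 7 neuron markers had a sum of 70.6 TPM in GFP-TC 1, the lowest library, and of 1144 TPM in ThTC 3, the highest. For macrophage markers the lowest was again GFP-TC 1 (942.6 TPM) and the highest ThTC 2 (3424 TPM). All 4 markers used for the tumour line (Nes, Vim, Cd44 and Sox2) were present in every library, with sums of 3591 to 5278 TPM. GFP-TC 1 held the lowest value for 31 of the 45 tested interleukin genes and ThTC 3 the highest for 18. In bulk tissue, fewer cells of a type and less RNA per cell cannot be told apart.

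**Figure D2:**
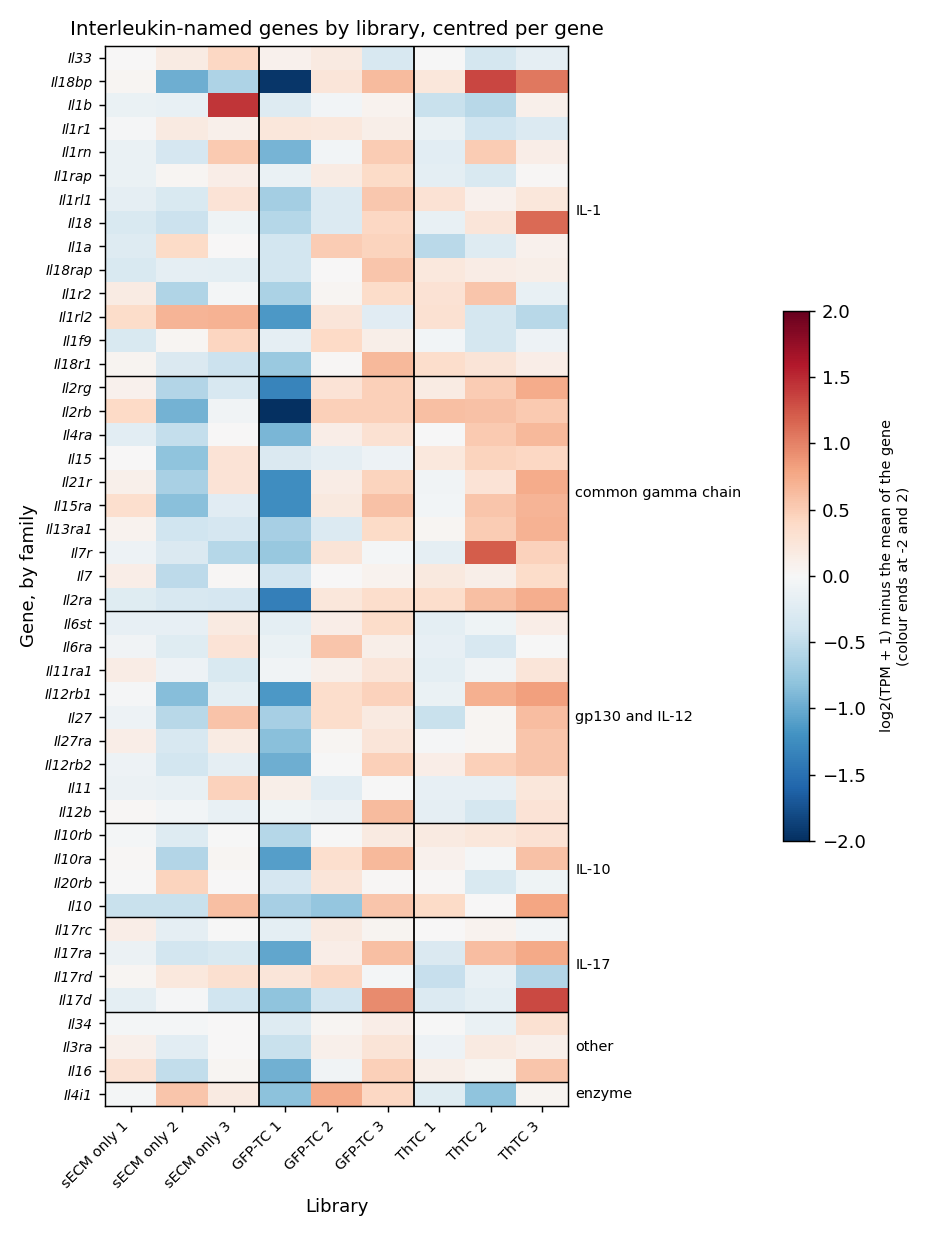
Each row is a tested gene and each column a library, coloured by log2(TPM + 1) minus the mean of the gene over the 9 libraries, with families separated by lines. GFP-TC 1 is blue in most rows, the 10 common gamma chain rows are mostly red in ThTC, and Il1r1 and Il17rd are blue in ThTC.

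Setting ThTC against GFP-TC addresses the secreted IFNβ and GM-CSF over cells alone. Higher mean log2 levels with ThTC were found for 30 of the 45 tested interleukin genes, with Il18bp, Il2rb, Il2ra and Il7r among the largest differences, and lower means for 15, led by Il17rd and Il1r1. The median log2 fold change (on the log2(TPM + 1) scale, which understates changes of low genes) was 0.30, against -0.10 for all 13829 tested genes, of which 33.8% were higher. None of the 45 genes was called by limma at an adjusted p of 0.05, and 0% of all genes were. At an unadjusted p under 0.05, 0 of the 45 were higher and 2 lower (Il1r1 and Il17rd), against 2.03% and 12.9% of all genes. The groups did not overlap for 3 genes that were higher (Il15, Il2rb and Il7) and for the same 2 that were lower, against 2.2% and 16.9% of all genes. Without GFP-TC 1 the median was -0.0034, with 22 genes higher and 23 lower, and without GFP-TC 3 it was 0.53. The labels state no pairs. Libraries with the same number deviated together in these 2 groups for numbers 1 and 3 (correlations over genes of 0.743 and 0.874). For number 2 the correlation was 0.124. Taken as pairs, the median difference was 0.58 in pair 1, 0.11 in pair 2 and 0.081 in pair 3. Blocking on the replicate number in these 6 libraries, limma still called 0 of the 45 genes and 10 of all genes, which is 0.0731%. At an unadjusted p under 0.05 in that fit, 16 of the 45 (35.6%) were higher and 2 (4.44%) lower, against 5.9% and 11.6% of all genes. The pairing was read from these same data, so the p-values of that fit are not independent support.

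Setting ThTC against sECM only addresses cells and factors together. Here 31 of the 45 genes had higher means with ThTC, with Il18bp, Il2ra and Il7r again high, and 14 had lower means, among them Il1rl2, Il1b and Il33. The median was 0.30, against -0.032 for all tested genes, of which 44.4% were higher. None was called by limma (0% of all genes). At an unadjusted p under 0.05, 0 were higher and 3 lower (Il1r1, Il17rd and Il33), against 1.54% and 5.36% of all genes. Groups did not overlap for 8 genes higher with ThTC (Il18bp, Il2ra, Il2rb, Il2rg, Il10rb, Il12rb2, Il18rap and Il18r1) and 4 lower (Il1r1, Il17rd, Il33 and Il1rl2), or 17.8% and 8.89% of the 45, against 5.03% and 12.1% of all genes. Both comparisons use the same ThTC libraries. The median was 0.13 without sECM only 2 and 0.14 without ThTC 3.

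GFP-TC against sECM only, the effect of the control cells, gave small differences. Of the 45 genes 28 had higher and 17 lower means, with a median of 0.041 against 0.077 for all tested genes, of which 71.8% were higher. After median-of-ratios scaling, which centres the genes, the split was 17 higher and 28 lower. No gene was called by limma (0% of all genes), and only Il1rl2 had an unadjusted p under 0.05, lower with GFP-TC, against 0.499% of all genes higher and 0.434% lower. Without GFP-TC 1, sECM only 2 or sECM only 3, 0 of the genes had such a p in the lower direction. Without GFP-TC 1, 6 of the 45 had such a p in the higher direction and 38 had higher means. The median of all tested genes was then 0.157. The shares of all genes at such a p and with higher means were not counted, so neither count can be set against them. With all libraries, Il1rl2 was also the only 1 of the 45 whose groups did not overlap, against 3.15% of all genes higher and 1.08% lower. Beside Il1rl2, the genes with the 5 smallest p-values in each direction, named by rule, had log2 fold changes of -0.21 for Il33, -0.47 for Il1b, -0.17 for both Il20rb and Il27ra, and 0.29 for Il18rap, 0.18 for Il11ra1, 0.20 for Il6ra, 0.10 for Il1r1 and 0.14 for Il6st (limma, adjusted p = 0.997 for each). Each of these 9 values moved by over 1.5 times when some single library was left out. The median moved with single libraries, to 0.29 without GFP-TC 1, -0.15 without GFP-TC 3, -0.051 without GFP-TC 2, -0.05 without sECM only 2, 0.075 without sECM only 1 and 0.089 without sECM only 3.

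**Figure D3:**
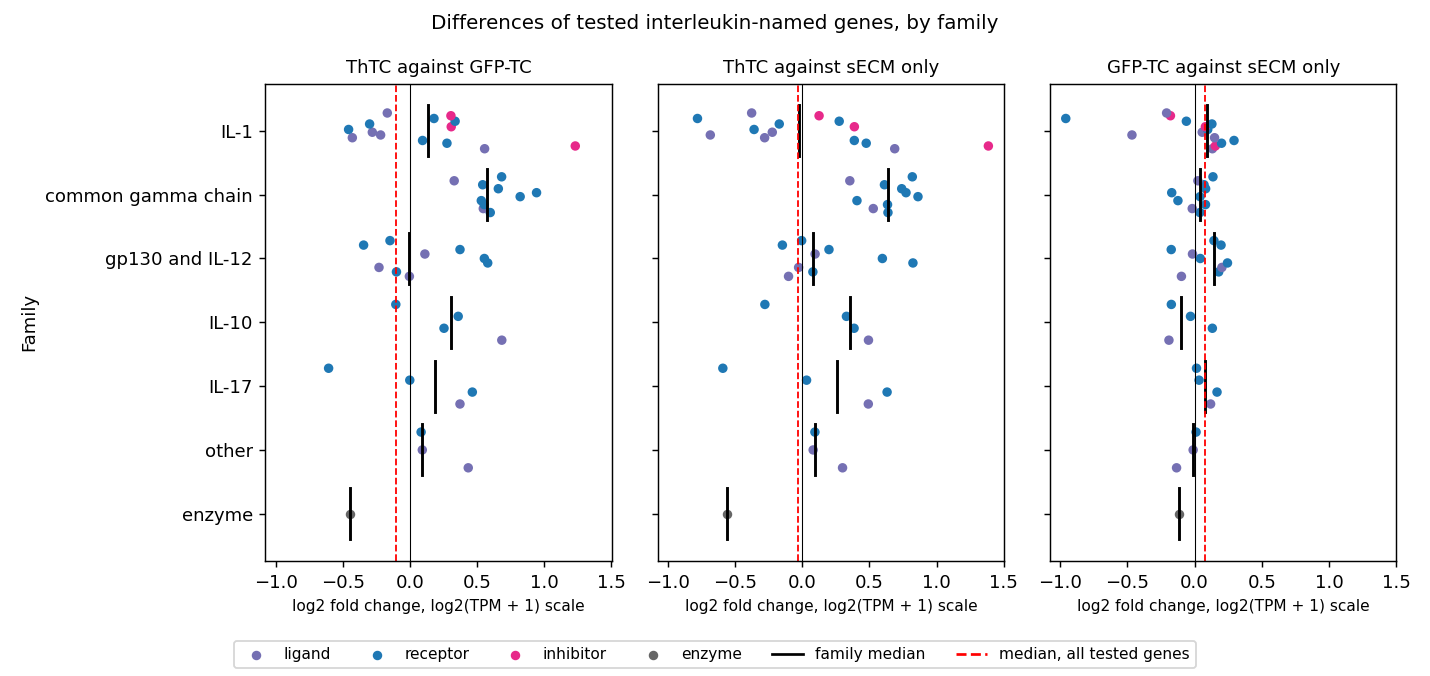
Log2 fold change of each tested gene in the 3 comparisons, by family, coloured by role; the black bars are family medians and the red dashed line is the median of all tested genes. The common gamma chain points all lie right of 0 in both comparisons of ThTC, and the IL-1 ligands other than Il18 lie left of it.

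In the IL-1 family, 1 of 5 tested ligands, all 3 inhibitors and 4 of 6 receptor genes had higher means with ThTC than with GFP-TC, and 1, 3 and 3 had higher means than with sECM only. None was called. Il1r1, the signalling receptor for IL-1α and IL-1β (chromosome 1, 40222480 to 40316201, GRCm38.p6), was at 23.6, 27.3 and 26.0 TPM with sECM only, 28.3, 28.1 and 26.0 TPM with GFP-TC and 21.75, 17.96 and 19.64 TPM with ThTC. All 3 ThTC libraries lay below all 6 others. The log2 fold change was -0.46 ± 0.11 against GFP-TC and -0.36 ± 0.11 against sECM only (± standard error, limma, adjusted p = 0.32 and 0.69), so neither was called. It stayed negative in both comparisons under all 22 alternative settings tried, from -0.52 to -0.33 and from -0.43 to -0.29. Its co-receptor Il1rap lay between 15.6 and 17.0 TPM in ThTC 2 and ThTC 1 and at 19.7 TPM in ThTC 3, against 17.7 to 25.8 TPM with GFP-TC, and the groups overlapped.

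Il33, an alarmin held in the nucleus and set free on damage (chromosome 19, 29925113 to 29960718), was at 85.7, 95.1 and 113.1 TPM with sECM only, 90.5, 96.6 and 68.1 TPM with GFP-TC and 84.4, 66.4 and 74.5 TPM with ThTC. The ThTC libraries lay below all sECM only libraries and overlapped GFP-TC, with a log2 fold change against sECM only of -0.38 ± 0.16 (limma, adjusted p = 0.69). Oligodendrocyte markers, of a cell type known to make IL-33 in the brain, summed to 296.8 to 654.3 TPM with sECM only, 165.3 to 1828 TPM with GFP-TC and 146.0 to 2215 TPM with ThTC, and the libraries richest in them, GFP-TC 3 and ThTC 3, were not those highest in Il33. The part of these cells in the value was not tested. Its receptor Il1rl1 (ST2) lay between 5.25 and 13.6 TPM with all groups overlapping.

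Il1b, the main inflammatory cytokine of myeloid cells, was at 21.3, 21.2 and 65.1 TPM with sECM only, 19.5, 22.5 and 24.7 TPM with GFP-TC and 17.0, 15.7 and 25.2 TPM with ThTC. One library, sECM only 3, stood far above the other 8, which lay between 15.7 and 25.2 TPM. Without it the log2 fold change of ThTC against sECM only was -0.16 instead of -0.68, and that of GFP-TC against sECM only was 0.058 instead of -0.47. Il1a, the sister ligand, lay between 2.60 and 6.44 TPM with groups overlapping. Il1rn, the receptor antagonist that blocks both, was at 17.1 to 31.8 TPM with sECM only, 10.95 to 31.6 TPM with GFP-TC and 18.7 to 31.6 TPM with ThTC. The ratio of Il1rn to Il1b within a library was 0.94, 0.81 and 0.49 with sECM only, 0.56, 0.93 and 1.28 with GFP-TC and 1.10, 2.02 and 0.95 with ThTC. All 3 ThTC ratios lay above all 3 sECM only ratios, the nearest being 0.95 against 0.94, and overlapped those of GFP-TC. The ratio was chosen after the values were seen and was not tested. Il1r2, the decoy receptor, lay between 2.12 and 6.11 TPM in all libraries.

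Il18bp (chromosome 7, 102015074 to 102018232) encodes a soluble protein that neutralises IL-18, and interferons are known to induce it. Its level was 48.9, 23.7 and 30.6 TPM with sECM only, 11.6, 56.1 and 73.8 TPM with GFP-TC and 55.7, 121.1 and 99.2 TPM with ThTC. ThTC lay above sECM only in every library and overlapped GFP-TC, where ThTC 1 was below GFP-TC 2 and GFP-TC 3. The log2 fold change was 1.23 ± 0.63 against GFP-TC and 1.39 ± 0.63 against sECM only (limma, adjusted p = 0.38 and 0.69), the largest of the 45 genes in both. Same-numbered libraries were taken as pairs, which the labels do not state. In these pairs Il18bp was higher with ThTC in 3 of 3, by 2.17, 1.10 and 0.42. With limma blocked on the replicate number in the 6 GFP-TC and ThTC libraries, its adjusted p was 0.10. Without GFP-TC 1 the difference from GFP-TC was 0.44. Il18 itself was at 5.82 to 7.66 TPM with sECM only, 5.17 to 11.3 TPM with GFP-TC and 7.30, 9.87 and 19.2 TPM with ThTC, so the ratio of Il18bp to Il18 overlapped between all groups. The gene model of Il18 overlaps those of Bco2 and Tex12, and whether counting used strand is not given in the sources used here. The receptor chains Il18rap and Il18r1 were low, at 2.92 to 6.45 and 0.10 to 1.90 TPM, and both lay higher in every ThTC library than in every sECM only library.

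Il1rl2, the receptor of IL-36, was highest with sECM only. It was at 2.85, 3.83 and 3.85 TPM there, at 0.35, 2.54 and 1.57 TPM with GFP-TC and at 2.70, 1.36 and 1.04 TPM with ThTC. Its log2 fold change was -0.96 ± 0.38 for GFP-TC and -0.78 ± 0.38 for ThTC against sECM only (limma, adjusted p = 0.997 and 0.69). Without GFP-TC 1 the former was -0.57. Both comparisons rest on the same sECM only libraries. Its ligand Il1f9 (IL-36γ) lay between 1.12 and 2.63 TPM, and Il1f6 (IL-36α) was listed at 0 throughout.

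The common gamma chain group as listed here also takes in the IL-13 genes, so it includes Il13ra1, a partner of Il4ra. All 10 tested genes of the group had higher means with ThTC than with either other group. Of all tested genes, 33.8% were higher than with GFP-TC and 44.4% higher than with sECM only. The median log2 fold change was 0.58 against GFP-TC and 0.64 against sECM only, and 0 of the 10 were called in either. All 10 were still higher against GFP-TC without any 1 of the 9 libraries, with a median of 0.17 without GFP-TC 1 and 0.87 without GFP-TC 3. Between GFP-TC and sECM only the median was 0.041, with 7 higher and 3 lower as deposited and 1 higher and 9 lower after median-of-ratios scaling. With no filter on low values, 11 of 16 genes of the group were higher in both comparisons of ThTC. Then 4 were lower against GFP-TC and 5 against sECM only. Il2ra, Il2rb, Il2rg, Il7r and Il21r are known for expression in lymphocytes, while Il4ra, Il13ra1, Il15 and Il15ra are widely expressed and Il7 is a stromal and epithelial cytokine.

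Il2rg, the common gamma chain itself (chromosome X, 101264385 to 101268255), was at 70.1, 43.8 and 53.0 TPM with sECM only, 25.9, 79.9 and 92.8 TPM with GFP-TC and 73.9, 94.2 and 111.3 TPM with ThTC. Il2rb, the IL-2 and IL-15 receptor β chain (chromosome 15, 78479256 to 78511621), was at 41.1, 15.6 and 29.3 TPM, 6.58, 43.1 and 43.4 TPM, and 47.2, 46.7 and 44.9 TPM in the same order of groups. The 3 ThTC values of Il2rb lay close together and above the other 6, the nearest being 44.9 TPM in ThTC 3 and 43.4 TPM in GFP-TC 3. Il2ra, the α chain that gives high affinity for IL-2 and marks activated and regulatory T cells, was at 2.41, 2.23 and 2.22 TPM with sECM only, 0.57, 3.74 and 4.19 TPM with GFP-TC and 4.17, 5.12 and 5.72 TPM with ThTC. ThTC was above sECM only throughout, while ThTC 1 lay just below GFP-TC 3. The log2 fold changes against GFP-TC and sECM only were 0.66 ± 0.43 and 0.74 ± 0.43 for Il2rg, 0.94 ± 0.65 and 0.77 ± 0.65 for Il2rb, and 0.82 ± 0.42 and 0.86 ± 0.42 for Il2ra (limma, adjusted p = 0.37 to 0.77). The differences from GFP-TC rested on GFP-TC 1: without it they were 0.093 for Il2rg, 0.094 for Il2rb and 0.27 for Il2ra. Pairs 1, 2 and 3 gave 1.48, 0.23 and 0.26 for Il2rg, 2.67, 0.11 and 0.048 for Il2rb, and 1.72, 0.37 and 0.37 for Il2ra. Against sECM only, Il2rb was at 0.40 without sECM only 2, and Il2rg without GFP-TC 3 was at 0.99 against GFP-TC.

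The summed T cell markers moved with these genes. All 8 markers (Cd3e, Cd3d, Cd3g, Cd2, Cd5, Cd28, Lck and Cd247) were present in every library. They summed to 72.1, 24.4 and 37.96 TPM with sECM only, 7.01, 57.5 and 68.8 TPM with GFP-TC and 86.5, 80.5 and 90.4 TPM with ThTC, so that ThTC lay above both other groups throughout. The sum of the 5 NK cell markers did the same, at 22.2 to 27.4 TPM with ThTC and 5.88 to 17.7 TPM elsewhere. Taken singly, Klrd1, the highest of the 5, and Klre1 lay above both other groups in every ThTC library. Eomes, Klrb1c and Ncr1 overlapped GFP-TC. Of the T cell markers, Cd3g, Lck and Cd247 lay above both other groups in every ThTC library. Cd2, Cd5 and Cd28 overlapped GFP-TC, Cd3d overlapped sECM only, and Cd3e overlapped both. Per TPM of T cell markers, Il2rb was at 0.54, 0.58 and 0.50 with ThTC, below the 0.94, 0.75 and 0.63 of GFP-TC and overlapping the 0.57, 0.64 and 0.77 of sECM only. The same ratio for Il2rg and Il21r was also lower in every ThTC than in every GFP-TC library, and that for Il2ra, at 0.048 to 0.064 with ThTC, overlapped both. When the T cell marker score entered the model as a covariate, a fit chosen after seeing the data, 6 of the 10 genes were higher and 4 lower against GFP-TC, with a median of 0.014. Over all 45 genes the median was then -0.23, and that of all tested genes -0.24. The score itself differed between the groups, so its share and that of the treatment cannot be told apart.

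**Figure D4:**
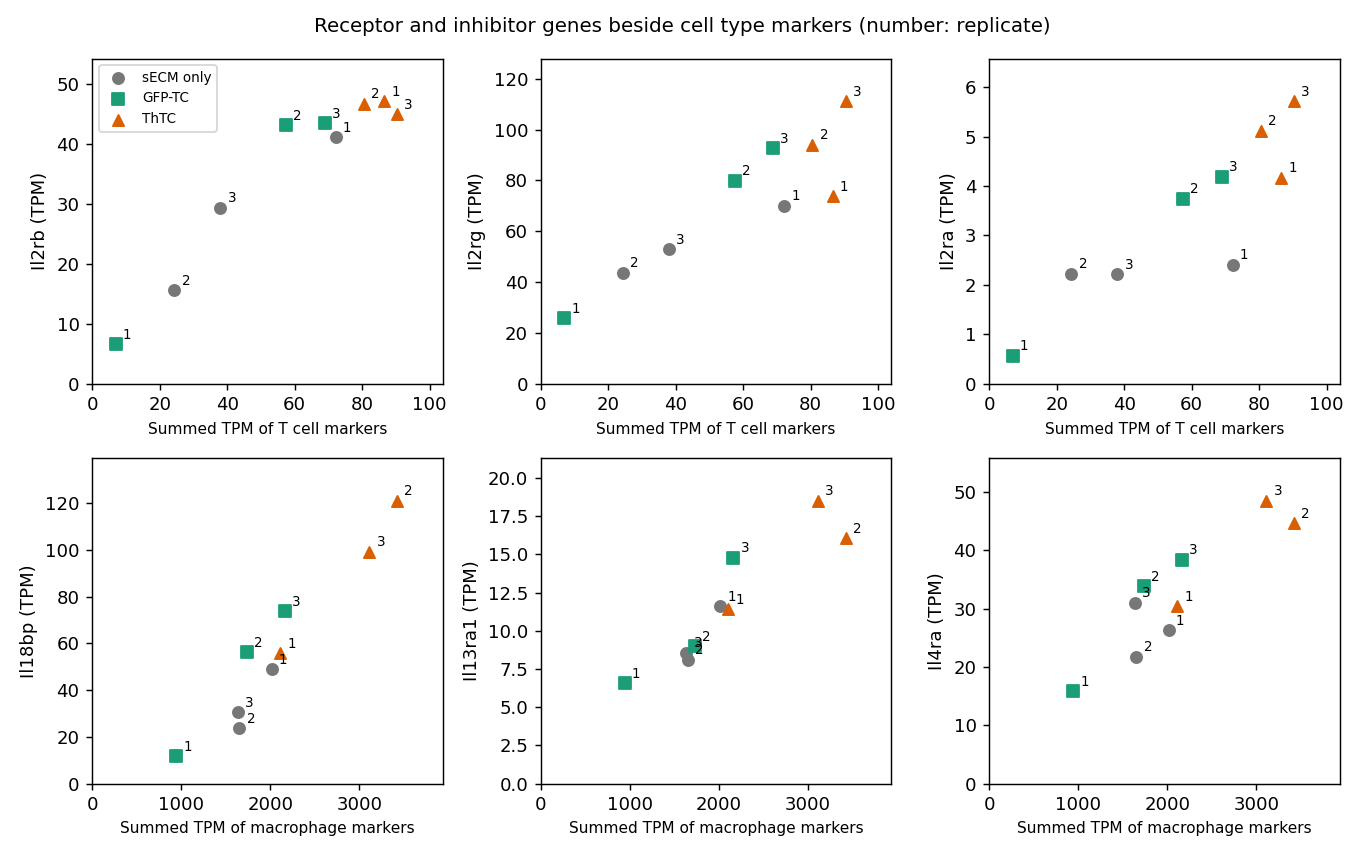
TPM of 3 receptor genes against summed T cell markers (top) and of 3 genes against summed macrophage markers (bottom), 1 point per library with its replicate number. Il2rb, Il2rg and Il18bp are lowest in GFP-TC 1, which also has the lowest marker sums, and the ThTC points lie at the right of the T cell plots.

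Il15, a growth factor for NK and memory CD8 T cells that is also interferon-inducible, was among the steadier genes. It was at 14.0, 7.46 and 17.0 TPM with sECM only, 11.1, 12.1 and 12.8 TPM with GFP-TC and 16.2, 19.1 and 18.8 TPM with ThTC. The ThTC libraries lay above all GFP-TC libraries and overlapped sECM only, where sECM only 3 was above ThTC 1. The log2 fold change was 0.55 ± 0.25 against GFP-TC (limma, adjusted p = 0.35), at 0.50, 0.61 and 0.52 in pairs 1, 2 and 3, and 0.53 ± 0.25 against sECM only (adjusted p = 0.69). Without GFP-TC 1 it was 0.495, and with the T cell or macrophage score or any other of the 22 settings it lay between 0.35 and 0.67. Against sECM only it was 0.21 without sECM only 2. Il15ra, which presents IL-15 to neighbouring cells, was lowest in GFP-TC 1 (3.99 TPM) and highest in ThTC 3 (18.04 TPM), with groups overlapping. Il7, the survival factor of resting T cells, was at 4.09, 3.85 and 4.74 TPM with ThTC. With GFP-TC it was at 2.40 to 3.68 TPM, which did not overlap (limma, adjusted p = 0.50). With sECM only it was at 3.87, 2.09 and 3.51 TPM, and sECM only 1 lay just above ThTC 2. Its receptor Il7r was at 2.70, 8.73 and 4.76 TPM with ThTC, 1.47 to 3.98 TPM with GFP-TC and 1.83 to 2.89 TPM with sECM only. For Il7r, ThTC 2 was the highest library by far, and without it the log2 fold change against sECM only was 0.46 instead of 0.82.

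The receptor chains for IL-4 and IL-13 were highest in ThTC 3, and the macrophage markers were high there too. Il13ra1 was at 11.6, 8.10 and 8.55 TPM with sECM only, 6.57, 8.97 and 14.8 TPM with GFP-TC and 11.4, 16.1 and 18.5 TPM with ThTC, with log2 fold changes of 0.60 ± 0.29 and 0.64 ± 0.29 for ThTC against GFP-TC and sECM only (limma, adjusted p = 0.36 and 0.69). Without GFP-TC 1 the former was 0.36. Il4ra, its partner, was at 15.8 to 38.4 TPM with GFP-TC and 30.5, 44.7 and 48.5 TPM with ThTC. All groups overlapped for Il13ra1, and for Il4ra ThTC 1 lay below sECM only 3. The 6 macrophage markers, all present in every library, summed to 1635 to 2015 TPM with sECM only, 942.6 to 2164 TPM with GFP-TC and 2107 to 3424 TPM with ThTC. Per TPM of these markers, Il13ra1 overlapped between all groups, and Il4ra was lower in every ThTC library (0.0130 to 0.0156) than in every GFP-TC library (0.0168 to 0.0195). Il18bp per TPM of macrophage markers was still higher in every ThTC library (0.0264 to 0.0354) than in every sECM only library (0.0143 to 0.0242), and overlapped GFP-TC (0.0123, 0.0323 and 0.0341). The macrophage score was also entered as a covariate for ThTC against GFP-TC. The log2 fold changes were then 0.079 for Il13ra1, 0.020 for Il10rb, -0.12 for Il18bp and -0.0025 for Il2ra. Of the 45 genes 8 were higher and 37 lower, with a median of -0.252 against -0.248 for all tested genes. Of the 10 tested genes of the common gamma chain group, 4 were higher and 6 lower, with a median of -0.058. This fit was also chosen after seeing the data. The macrophage score was 6.3234, 7.4674 and 7.7303 with GFP-TC and 7.5325, 8.0358 and 8.1014 with ThTC. It was thus mostly higher with ThTC, although ThTC 1 lay below GFP-TC 3. It was also higher in every ThTC library than in every sECM only library. In both comparisons, the share of the score and that of the treatment therefore cannot be told apart.

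The gp130 and IL-12 group split between widely expressed and lymphoid chains. Il6st, the gp130 chain shared by the IL-6, IL-11 and IL-27 receptors, lay between 40.1 and 59.5 TPM, Il6ra between 27.2 and 50.7 TPM and Il11ra1 between 20.3 and 30.1 TPM, each with highest values at most 1.86 times the lowest. Il11ra2 is a near-identical copy of Il11ra1 and was listed at 0 to 0.20 TPM, so reads may have been assigned to either. Il12rb1, a receptor chain for IL-12 and IL-23, was at 18.5, 10.1 and 16.3 TPM with sECM only, 7.95, 24.4 and 26.3 TPM with GFP-TC and 17.2, 31.4 and 34.1 TPM with ThTC. Its partner Il12rb2, at 1.14 to 1.57 TPM with sECM only and 2.00 to 3.04 TPM with ThTC, did not overlap between those groups, and GFP-TC ran from 0.40 to 2.82 TPM. The log2 fold change of Il12rb2 was 0.60 ± 0.35 (limma, adjusted p = 0.69), and per TPM of T cell markers all groups overlapped. The ligands were low: Il12b lay between 1.05 and 3.07 TPM, Il27 between 1.24 and 4.41 TPM, and Il6, the best-known acute inflammatory cytokine of the group, between 0.28 and 1.21 TPM.

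In the IL-10 group, Il10rb, a chain shared with the receptors for IL-22 and interferon lambda, was at 36.3, 31.1 and 36.9 TPM with sECM only, 24.8, 37.2 and 42.3 TPM with GFP-TC and 42.1, 43.8 and 45.5 TPM with ThTC. ThTC lay above sECM only throughout, and ThTC 1 lay just below GFP-TC 3. The log2 fold change was 0.36 ± 0.18 against GFP-TC and 0.33 ± 0.18 against sECM only (limma, adjusted p = 0.37 and 0.69). Without GFP-TC 1 the former was 0.14. Il10ra, the other chain, ran from 8.86 to 32.0 TPM with groups overlapping. Il10, the anti-inflammatory ligand, was at 0.25, 0.25 and 1.59 TPM with sECM only, 0.08, 0 and 1.52 TPM with GFP-TC and 1.23, 0.72 and 1.94 TPM with ThTC, and the highest libraries were ThTC 3, sECM only 3 and GFP-TC 3.

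In the IL-17 group, Il17rd, a receptor-like protein also known as Sef that dampens fibroblast growth factor signalling (chromosome 14, 27038964 to 27107286), shared with Il1r1 that it lay lower with ThTC than with both other groups. It was at 6.59, 7.54 and 8.26 TPM with sECM only, 7.76, 8.79 and 6.21 TPM with GFP-TC and 4.36, 5.67 and 3.91 TPM with ThTC, so all 3 ThTC libraries lay below the 6 others. The log2 fold change was -0.61 ± 0.18 against GFP-TC and -0.59 ± 0.18 against sECM only (limma, adjusted p = 0.32 and 0.69), and over the 22 alternatives it lay between -0.73 and -0.49 and between -0.72 and -0.50. Of the markers used for the tumour line, Nes was also lower in every ThTC library than in the others. It was at 35.1 to 41.8 TPM with ThTC, 50.55 to 62.9 TPM with GFP-TC and 45.1 to 57.5 TPM with sECM only. Sox2 was lower in every ThTC than in every sECM only library but overlapped GFP-TC. It was at 116.6 to 157.1 TPM with ThTC, 132.8 to 240.3 TPM with GFP-TC and 179.9 to 211.5 TPM with sECM only. Vim and Cd44 overlapped between ThTC and both other groups. The part of tumour content in the Il17rd value was not tested. Il17rc was even across libraries, at 59.3 to 77.4 TPM, and Il17ra ran from 3.30 to 14.0 TPM. Il17d was highest in GFP-TC 3 (6.64 TPM) and ThTC 3 (8.91 TPM), the libraries richest in neuron markers. It lay between 1.26 and 2.92 TPM in the other 7, and the part of neurons in the value was not tested. The ligands of the receptor pair were scarce, with Il17a listed at 0 in all 9 libraries and Il17f at 0.74 TPM or less.

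**Figure D5:**
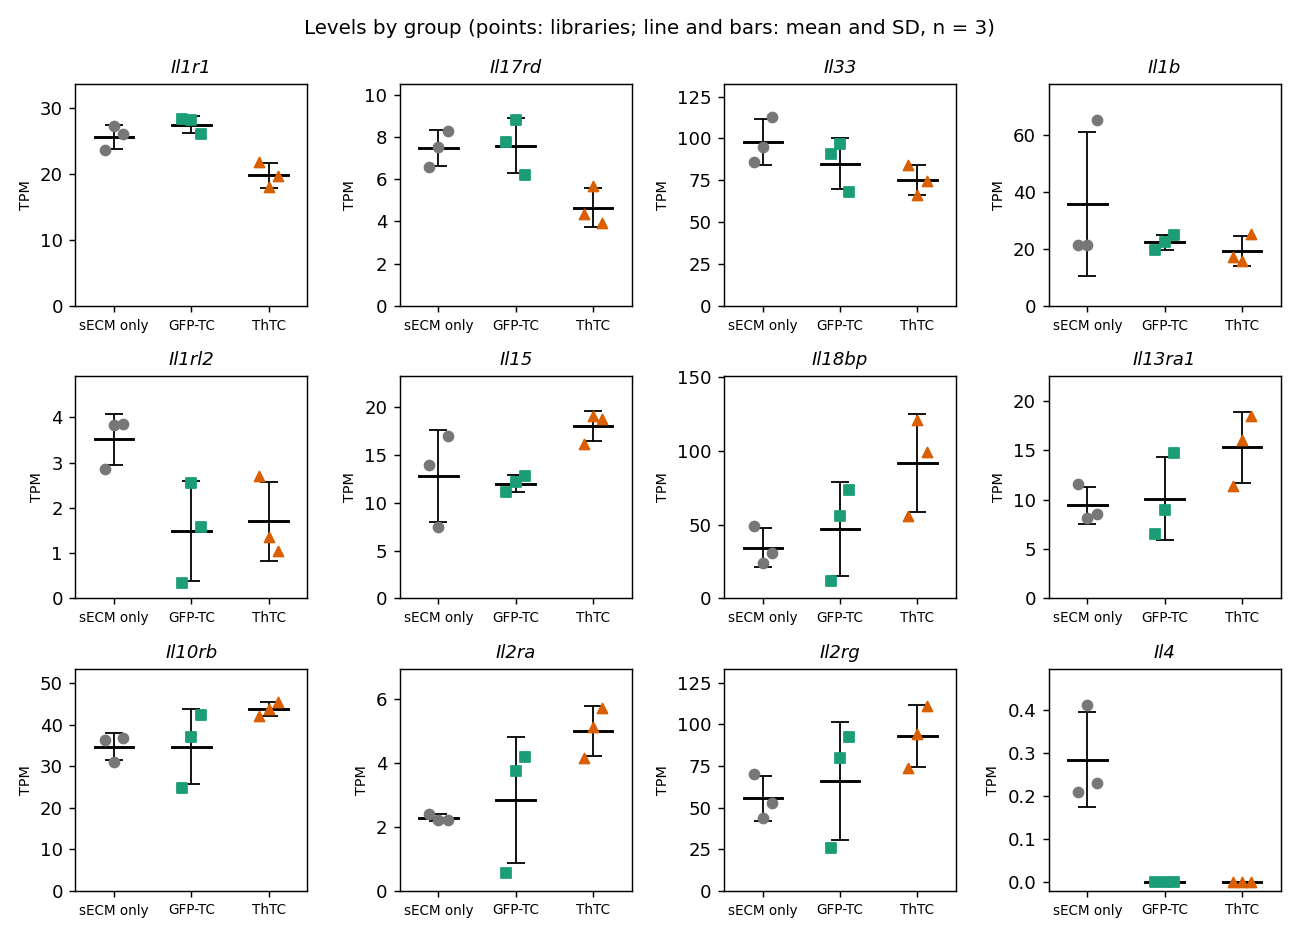
TPM of 12 genes by group, with points for libraries and a line with bars for the mean and SD of 3 libraries. Il1r1 and Il17rd lie lower in ThTC than in both other groups, Il1b has 1 high library in sECM only, and Il4 is above 0 in the sECM only libraries and at 0 in the other 6.

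Among the remaining genes, Il34 is a second ligand of the macrophage receptor CSF1R that neurons make. The part of neurons in its value was not tested. Il34 lay between 51.3 and 76.4 TPM. It was lowest in GFP-TC 1 and highest in ThTC 3, the libraries with the lowest and highest neuron markers, while the order in between differed. Its difference between ThTC and GFP-TC was 0.092 ± 0.13 on the log2 scale (limma, adjusted p = 0.79; 95% interval -0.21 to 0.40), and it was -0.022 without GFP-TC 1 and -0.031 without ThTC 3. Il3ra, the IL-3 receptor α chain, lay between 20.2 and 33.4 TPM and Il16, a chemoattractant for CD4+ cells, between 3.26 and 11.3 TPM, and both overlapped between all groups. Il4i1, the enzyme of amino acid breakdown in macrophages and dendritic cells, was at 1.96, 1.01 and 2.64 TPM with ThTC and 0.99 to 4.87 TPM elsewhere. Its gene model overlaps that of Il4i1b, so their reads may not be separable.

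The 33 genes below the level for testing included the type 2 cytokines. Il4, the founding type 2 cytokine (chromosome 11, 53612460 to 53618665), was at 0.21, 0.41 and 0.23 TPM with sECM only and listed at 0 in all 6 other libraries. Il13 was at 0.09, 1.20 and 0.61 TPM with sECM only, 0.09, 0.51 and 0 TPM with GFP-TC and 0.36, 0 and 0.10 TPM with ThTC. Il5 was at 0, 0.43 and 0.32 TPM, 0.07, 0.24 and 0 TPM, and 0 in all 3 ThTC libraries. The sum of these 3 genes was highest in sECM only 2 and sECM only 3, at 2.04 and 1.16 TPM, and at most 0.75 TPM elsewhere. TPM keeps no read depth, so a listed 0 cannot be given an upper limit. Mast cells and eosinophils are known sources or partners of these cytokines. The 5 mast cell markers summed to 58.8, 9.25 and 94.6 TPM with sECM only, 0.41, 13.9 and 62.7 TPM with GFP-TC and 33.2, 10.8 and 91.1 TPM with ThTC. The library highest in the 3 cytokines, sECM only 2, was thus among the lowest in mast cell markers. The 4 eosinophil markers summed to 3.33, 2.22 and 3.86 TPM with sECM only, 0.45 to 1.61 TPM with GFP-TC and 0.48 to 3.25 TPM with ThTC. The part of these cells in the values was not tested. 

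Il2, the T cell growth factor, was listed at 0 in 4 libraries, all sECM only or GFP-TC 1, and reached 0.53 TPM in GFP-TC 2. Il12a lay at 0.49 TPM or less. Il1rapl1 and Il1rapl2, synaptic relatives of the IL-1 receptor, were highest in GFP-TC 3 and ThTC 3 at 0.61 and 0.65 TPM and at 0.33 and 0.32 TPM. Il13ra2, the decoy receptor of IL-13 that human gliomas often carry, lay between 0 and 0.18 TPM in these tumours, and Il22ra2, the soluble inhibitor of IL-22, at 0.09 TPM or less.

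The genes through which interleukin receptors signal, and the partner chains and ligands whose symbols do not begin with Il, gave no calls. Of 49 such genes 47 were tested, and limma called 0 in each of the 3 comparisons. For ThTC against GFP-TC 24 had higher and 23 lower means, with a median log2 fold change of 0.0068. At an unadjusted p under 0.05, Pycard, the inflammasome adaptor, was higher (20.1 against 10.7 TPM), and 6 were lower, among them the NF-κB subunits Nfkb1 (111.2 against 135.2 TPM) and Rela (158.7 against 191.8 TPM) and the IL-1 receptor kinase Irak1 (89.7 against 104.7 TPM), each at an adjusted p of 0.32. These are 2.13% higher and 12.8% lower of the 47, near the 2.03% and 12.9% of all tested genes. Against sECM only, 31 had higher and 16 lower means (median 0.12), with Pycard, Nfkb1 and Rela again at an unadjusted p under 0.05 and in the same directions (adjusted p = 0.69), or 2.13% higher and 4.26% lower against 1.54% and 5.36% of all genes.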

How the data were processed

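Each library's file as deposited by the authors gives TPM with 2 decimals for every gene. The submitters' processing notes name the aligner HISAT and the builds GRCm38.p6 and mm10. Versions, quantification tool, annotation, strand use and filters are not given in the sources used here. Per the labels' protocols, 4.47 Gb of bases were sequenced per sample on a DNBseq instrument. TPM keeps no depth and has a fixed total, so no counting interval is given.

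Genes reaching 1 TPM in 3 or more libraries were tested as log2(TPM + 1) with limma 3.58.1 in R 4.3.3 (intensity trend), with all libraries in 1 fit and Benjamini-Hochberg adjustment over all 13829 genes. The steps were also run on simulated data with independent noise for each gene and library. Those data lacked the shared differences in tissue content of the real libraries, so that run cannot speak to them. Replicates of a group were not identical: of the genes at 1 TPM or more, at most 0.312% had equal TPM in any 2 libraries. Figures were drawn with matplotlib 3.10.9.

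The genes, lists and rules were chosen with earlier results of these data known. Genes were named if they had the 5 smallest p-values per direction and comparison, the 10 highest means, or a place on a list fixed by role. Other genes, among them Il4, Il5, Il13, Il7, Il2, Il17f, Il1f9, Il1rapl2 and Il4i1, were named after their values were seen. Same-numbered GFP-TC and ThTC libraries deviated together (correlations of 0.743, 0.124 and 0.874 over genes), so numbers were treated as pairs there, although the labels do not say so. With sECM only, same-numbered ThTC libraries gave -0.548, 0.282 and -0.205 and GFP-TC libraries -0.527, -0.136 and -0.187, and these were not treated as paired. The alternatives were a pseudocount of 0.1, no filter, a mean of 5 TPM, median-of-ratios and quantile scaling, 6 libraries only, a replicate block, a neuron score and leaving out each library. Marker scores of T cells and macrophages and leaving out both libraries numbered 1 or 3 of the cell groups were added after seeing the data.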

Additional observations from a re-analysis of the deposited data

How the results depend on the processing

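In all 66 refits (22 alternatives for each comparison) limma called 0 of the interleukin genes. With the replicate number as a block, which pairs the libraries, the count of called interleukin genes was also 0, while over all genes it was 10 for ThTC against GFP-TC in 6 libraries and 1 for GFP-TC against sECM only in all 9. It changed no other call. Median-of-ratios scaling moved the median of all genes for ThTC against GFP-TC from -0.10 to 0.020.

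The median of the tested interleukin genes was 0.30 for both comparisons of ThTC. With the T cell score as a covariate it was -0.23 against GFP-TC and -0.11 against sECM only. With the macrophage score it was -0.25 and -0.084. The medians of all tested genes were -0.24 and -0.13 with the T cell score, and -0.25 and -0.14 with the macrophage score. With no filter on low values the median of the interleukin genes was 0.031 and 0.088 over 74 genes. Of these, 40 and 41 were higher and 33 lower in each. Leaving out 1 library gave -0.0034 to 0.53 against GFP-TC, 0.13 to 0.38 against sECM only and -0.15 to 0.29 for GFP-TC against sECM only. Of the genes named for their p, with 645 refits that kept direction and call, 6 reversed, none of them called. With the macrophage score, Il2ra was at -0.0025 and Il18bp at -0.12 for ThTC against GFP-TC. For GFP-TC against sECM only, Il1r1 was at -0.0035 with quantile normalization, Il1b at 0.058 without sECM only 3, and Il27ra at 0.15 both without GFP-TC 1 and without GFP-TC 1 and ThTC 1 together. Leaving out 1 library gave -0.73 to 0.058 for Il1b and -0.39 to 0.15 for Il27ra in that comparison. The cause was not tested. Unknown read depth limits every value under 1 TPM.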
